A study of Homo sapiens with 8 samples.

Results

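The genes described here encode the subunits of the oxidative phosphorylation (OXPHOS) machinery that are made from nuclear DNA. They were chosen by name among protein-coding genes: NDUFA, NDUFB, NDUFC, NDUFS and NDUFV genes, SDHA to SDHD, CYC1 and the UQCR genes, the COX4 to COX8 genes, and the ATP5 genes for subunits. Of 269 matching symbols, 180 were not protein-coding and 2 were readthrough genes, which left 87 of the 63140 genes in the table. Complex I had 36 of them, complex II 4, complex III 10, complex IV 19 and complex V 18. NDUFA4 and NDUFA4L2 were counted with complex IV, where NDUFA4 is now placed. The names miss NDUFAB1, DMAC2L and ATP5IF1, which are given with the other genes of the pathway.

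Oxidative phosphorylation is the mitochondrial process that turns the energy of nutrients into ATP. Complexes I and II pass electrons from NADH and succinate to ubiquinone, complex III passes them to cytochrome c, and complex IV passes them to oxygen, while complexes I, III and IV pump protons that drive the ATP synthase, complex V. Most subunits are encoded in the nucleus, translated in the cytosol and imported, and a small core of complexes I, III, IV and V is encoded in mitochondrial DNA. Leukaemia cells of the myeloid lineage are known to rely on this pathway.

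The libraries were made from RNA captured by ChIRP (chromatin isolation by RNA purification), in which biotinylated probes are hybridised to the lysate of fixed, sonicated cells and captured on beads. For all 8 libraries the labels give 1% glutaraldehyde, fragments of 100 to 500 bp and 10 ng of RNA input. The 8 libraries are labelled MOLM13 or OCI-AML4, both established acute myeloid leukaemia lines, and were made at day 3 after nucleofection. In the KO arm HOTSCRAMBL KO was set against AAVS1 KO, and in the CBE arm HOTSCRAMBL CBE against AAVS1 CBE. KO is an edit with Cas9 ribonucleoprotein, CBE an edit with a cytosine base editor, HOTSCRAMBL the targeted long non-coding RNA and AAVS1 the control target of each editor. Each group held 2 libraries, replicate 1 labelled MOLM13 and replicate 2 labelled OCI-AML4, so by the labels a group has no repeat of either line. The labels list the AAVS1 libraries of both arms as WT and the others as HOTSCRAMBL KO or CBE. All cells were nucleofected, and the labels used here do not say whether edited cells were bulk populations or clones. Neither the RNA that the probes target nor an input library is stated in the labels, so a level below is an amount in a pull-down, and fewer cells with an RNA, less RNA per cell and less recovery cannot be told apart.

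The libraries held 20548300 to 37970163 counts. Of 12 myeloid markers, 9 averaged above 1 CPM (counts scaled to a common library size) and 3 (ANPEP, CD34, KIT) below it, with none at 0 throughout. Of 15 markers of T, B, erythroid, megakaryocyte, epithelial and fibroblast cells, 6 had no count in any library. The labelled lines differed little: 119 of 24057 tested genes (0.495%) passed the test between them, and the line labels could not be checked against a known library. p-values therefore measure the spread between these libraries, with n = 2 per group.

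Of the 87 genes, 83 passed the low-count filter and were tested. The other 4 (COX4I2, COX6A2, COX7B2 and COX8C) are isoforms of other tissues and were at or near 0. At least 10 counts in all 8 libraries were found for 80 of the 83, and 2 had them in both libraries of only 1 group. Levels between genes are given per length, as RPKM (CPM per kilobase of annotated exon). Mean levels over the 8 libraries ran from 0.638 RPKM for NDUFA9 to 75.5 RPKM for CYC1. The median was 5.18 RPKM in complex I, 3.70 in complex II, 6.62 in complex III, 10.7 in complex IV and 6.39 in complex V. Subunits that stand in fixed ratios in the assembled enzymes thus had RPKM values far apart. The lengths count every annotated exon base, 535 for NDUFB7 and 12600 for UQCRB, so RPKM ranks also depend on the annotation.

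The stretches directly before the start sites of 4 genes are shown. COX6B1 and COX5B, which rose with both edits, and UQCRH, which rose with CBE, were chosen because they hold CCGGAAG. These letters are a form of the site for ETS factors such as GABPA. COX7C, which rose with both edits, was chosen because it has no exact match to them. Other forms of the site were not searched, so its stretch may hold them. Each is the 80 bases before the RefSeq start on GRCh38.p14, on the plus strand, 5′ to 3′. Capitals mark CCGGAAG or its reverse complement CTTCCGG.
COX6B1, chr19:35648243-35648322: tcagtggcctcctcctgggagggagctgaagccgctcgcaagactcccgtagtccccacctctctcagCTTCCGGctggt
COX5B, chr2:97645982-97646061: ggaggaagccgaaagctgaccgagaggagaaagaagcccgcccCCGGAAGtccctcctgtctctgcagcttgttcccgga
UQCRH, chr1:46303618-46303697: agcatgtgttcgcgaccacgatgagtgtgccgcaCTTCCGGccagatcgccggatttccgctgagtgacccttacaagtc
COX7C, chr5:86617861-86617940: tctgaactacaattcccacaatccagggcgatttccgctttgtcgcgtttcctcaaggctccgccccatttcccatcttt
The first base of the match lies 12 bases before the start of COX6B1, 37 before COX5B and 46 before UQCRH.

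RefSeq windows from 250 bases before to 50 after the start were found for 68 of the 87 genes and for 27305 genes in all, and were searched on both strands. CCGGAAG was in 20 of the 68 (29.4%) against 10.7% of all windows. The NRF1 site GCATGCGC was in 13 (19.1%, all windows 3.27%), and the YY1 site AAGATGGC, which can share its first 3 bases with the ETS site, was in 11 (16.2%, all windows 3.03%). CCAAT was in 24 (35.3%, all 35.7%) and TATAAA in 7 (10.3%, all 12%). Among the 15 matched genes that passed the test with either edit, 7 held CCGGAAG, 2 GCATGCGC, 1 AAGATGGC, 6 CCAAT and 0 TATAAA. These matches describe letters in the windows. No binding was measured here.

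The first comparison asked what RNA of these genes was recovered after Cas9 targeting of HOTSCRAMBL. Of the 83 genes, 14 rose against AAVS1 KO and 0 fell (16.9% higher, where 4.51% of all tested genes were higher, 4.25% lower and 8.76% either). They were COX6B1, COX4I1, COX5B, COX7C and COX7A2L of complex IV, ATP5F1D, ATP5F1A, ATP5F1E, ATP5MC2 and ATP5F1B of complex V, UQCRFS1 and UQCRB of complex III, and NDUFB7 and NDUFB9 of complex I. The median log2 fold change was 0.54 over the 83 and −0.01 over all tested genes, and 65 of the 83 were above 0. In 37 genes (44.6%) both HOTSCRAMBL KO libraries lay above both AAVS1 KO libraries and in 8 (9.64%) below, against 21.0% and 23.8% of all tested genes. All 14 that passed were among the 37.

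Fewer genes passed with any library of the KO arm left out, among the OXPHOS genes and among all tested genes. The median was then 0.49 without AAVS1 KO replicate 1 (all tested genes 0.02) and 0.55 without replicate 2 (all 0.10). It was 0.51 without HOTSCRAMBL KO replicate 1 (all −0.06) and 0.37 without replicate 2 (all −0.19). DESeq2 on the same counts gave 23 higher and 2 lower, where it called 17.3% of all tested genes in either direction. The 2 lower were NDUFA11 (log2 fold change −0.76, adjusted p 0.0241) and NDUFS6 (−0.91, adjusted p 0.0153), named after their values were seen. Within the labelled lines, the median log2 ratio of the pair was 0.33 for MOLM13 and 0.47 for OCI-AML4.

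The second comparison put HOTSCRAMBL CBE against AAVS1 CBE, which shares no library with the first. Here 17 of the 83 rose and 0 fell (20.5% higher, where 4.56% of all tested genes were higher, 4.27% lower and 8.83% either). The 17 held 11 of the 14 that rose with KO, and also COX8A and COX6C of complex IV, UQCRH of complex III, ATP5PB of complex V, and NDUFA1 and NDUFB11 of complex I. The median log2 fold change was 0.56, against −0.02 over all tested genes, and 67 of the 83 were above 0. Both HOTSCRAMBL CBE libraries lay above both controls in 45 genes (54.2%, all tested genes 22.7%) and below in 7 (8.43%, all 23.7%). All 17 were among the 45.

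Fewer genes also passed with any library of the CBE arm left out, again among the OXPHOS genes and among all tested genes. The median was then 0.58 without AAVS1 CBE replicate 1 (all tested genes 0.05) and 0.56 without replicate 2 (all 0.01). It was 0.51 without HOTSCRAMBL CBE replicate 1 (all −0.11) and 0.56 without replicate 2 (all −0.06). DESeq2 gave 20 higher and 1 lower, where it called 13.9% of all tested genes in either direction. The gene called lower was NDUFV3 (log2 fold change −0.38, adjusted p 0.00788), again named after its value was seen. The median log2 ratio of the pair was 0.50 for MOLM13 and 0.46 for OCI-AML4.

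Genes higher with both edits numbered 11 (13.3% of the 83, where 1.65% of all tested genes were higher in both), which is 78.6% of the KO calls and 64.7% of the CBE calls. NDUFB7, NDUFB9 and COX7A2L passed with KO alone and NDUFA1, NDUFB11, UQCRH, COX8A, COX6C and ATP5PB with CBE alone, so 20 passed with either edit. The fold changes of the 83 genes with the 2 edits had a Pearson r of 0.46 and a Spearman rho of 0.503, across genes that are not independent replicates.

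**Figure D1:**
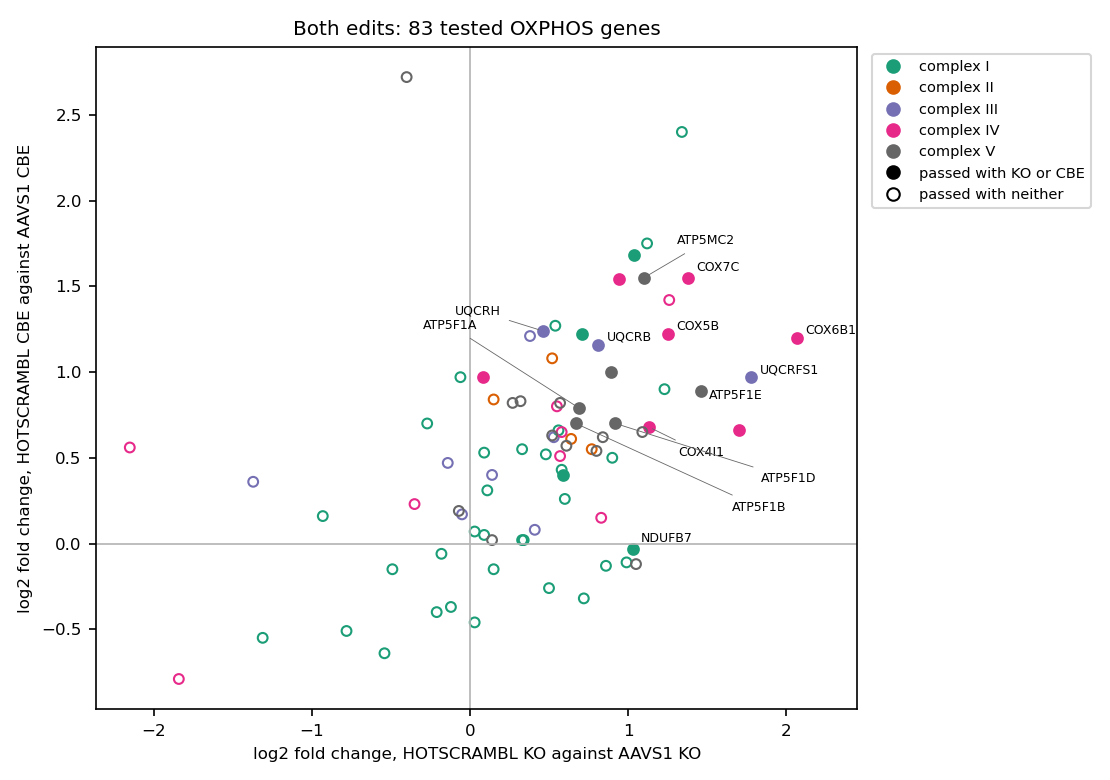
Each point is 1 of the 83 tested genes, with its log2 fold change for KO on the x axis and for CBE on the y axis, coloured by complex and filled where it passed the test with either edit. Of the points, 57 lie above 0 on both axes and 8 below 0 on both, and all 20 filled points except NDUFB7 lie above 0 on both.

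Several other measures moved with the HOTSCRAMBL groups, and their part in these results was not tested. The summed level of 86 cytosolic ribosomal protein genes averaged 13900 CPM in the controls and 44870 in the HOTSCRAMBL libraries of the KO arm, and 13840 and 34350 CPM in those of the CBE arm. TMM scaling factors were 1.04 to 1.063 in the AAVS1 libraries and 0.9293 to 0.9644 in the HOTSCRAMBL libraries. Without TMM the median of all tested genes was −0.17 with KO and −0.15 with CBE, and that of the OXPHOS genes 0.37 and 0.42. The 12 myeloid markers summed to 1820 to 1960 CPM in the controls and 2200 to 2340 in the HOTSCRAMBL libraries of the KO arm, and to 1820 to 1830 and then 1730 to 1780 CPM in those of the CBE arm.

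In complex I, the NADH dehydrogenase, 2 of 36 genes rose with KO and 2 others with CBE. That is 5.56% in each, near the 4.51% and 4.56% of all tested genes that were higher. The median log2 fold changes of the complex were 0.34 and 0.11. NDUFB7, an accessory subunit of the membrane arm, had the highest mean RPKM of the complex (38.4 CPM, against 144 CPM for NDUFA10). With the library labelled MOLM13 given first and OCI-AML4 second, here and below, it stood at 42.4 and 62.6 RPKM in the controls and 102 and 113 in the HOTSCRAMBL libraries of the KO arm, and at 52.3 and 77.7 and then 61.6 and 62.3 in those of the CBE arm. The KO libraries lay apart and the CBE libraries within the range of their controls. NDUFB7 rose 2.05-fold with KO (1.03 on the log2 scale with SE 0.249, edgeR adjusted p 0.00686), and its log2 fold change with CBE was −0.03 (95% interval −0.52 to 0.46). The KO call held in 11 of 16 alternative analyses and was lost without any 1 of the 4 KO libraries.

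NDUFS5, another accessory subunit, stood at 37.6 and 50.7 RPKM in the controls and 77.8 and 68.4 in the HOTSCRAMBL libraries of the KO arm, and at 46.8 and 58.9 and then 40.5 and 43.9 in those of the CBE arm. Both KO libraries were above their controls and both CBE libraries below theirs, but its log2 fold changes of 0.72 and −0.32 did not pass (edgeR adjusted p 0.119 and 0.570). NDUFV1, which carries the NADH-binding flavin site, was measured closely and differed little, with 95% intervals of −0.29 to 0.35 for KO and −0.23 to 0.37 for CBE. NDUFB9, an accessory subunit, rose with KO (0.59, edgeR adjusted p 0.0398), a call that held in 5 of 16 alternative analyses, and 13.2% of its exon bases are shared with other genes. NDUFA1 (1.68, edgeR adjusted p 0.0274) and NDUFB11 (1.22, edgeR adjusted p 0.0094), both accessory subunits, rose with CBE, and their calls held in 8 and 12 of 16. The lowest log2 fold change in the complex was −1.31 for NDUFA7 with KO and the highest 2.40 for NDUFC2 with CBE, and neither passed (edgeR adjusted p 0.374 and 0.06). NDUFV1, NDUFB9, NDUFA1, NDUFB11, NDUFA7 and NDUFC2 were named after their values were seen.

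Complex II, succinate dehydrogenase, is encoded wholly in the nucleus, and 0 of its 4 genes passed with either edit. SDHB, the iron-sulphur subunit, stood at 5.34 and 5.12 RPKM in the controls and 3.89 and 7.60 in the HOTSCRAMBL libraries of the KO arm, and at 3.46 and 2.89 and then 5.46 and 5.99 in those of the CBE arm. The KO libraries lay on either side of their controls and the CBE libraries above theirs. SDHC, a membrane anchor, stood at 3.96 and 4.41 RPKM, 6.61 and 5.40, 2.54 and 3.41, and 7.52 and 4.54 in the same order, with no overlap in either comparison. The log2 fold changes of the 4 genes were all above 0, from 0.15 to 0.77 with KO and from 0.55 to 1.08 with CBE, with a median SE of 0.425 and 0.409. The unadjusted p was under 0.05 for 1 gene with KO and 2 with CBE. Of all 24057 tested genes it was under 0.05 for 4834 with KO and 4845 with CBE.

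Complex III, the cytochrome bc1 complex, had 2 of 10 genes higher with KO and 3 with CBE. Of all tested genes 4.51% and 4.56% were higher. The medians of the complex were 0.39 and 0.55. Its most abundant gene, CYC1, encodes cytochrome c1. CYC1 stood at 72.4 and 79.8 RPKM in the controls and 60 and 88.1 in the HOTSCRAMBL libraries of the KO arm, and at 64.4 and 78.5 and then 70.6 and 90.4 in those of the CBE arm. In every group the library labelled OCI-AML4 was higher, and the groups overlapped. With 95% intervals of −0.34 to 0.24 for KO and −0.11 to 0.44 for CBE, a 2-fold change of CYC1 lies outside both.

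UQCRH, the hinge protein that links cytochrome c1 to cytochrome c, stood at 40.3 and 35.4 RPKM in the controls and 49.7 and 54.7 in the HOTSCRAMBL libraries of the KO arm, and at 29.4 and 35.9 and then 75.6 and 78.4 in those of the CBE arm. Groups did not overlap in either comparison. UQCRH rose 2.37-fold with CBE (1.24 on the log2 scale with SE 0.179, edgeR adjusted p 2.00e-05), a call that held in all 16 alternative analyses. With KO its log2 fold change of 0.46 did not pass (edgeR adjusted p 0.18). The test of the difference between the edits gave −0.78 (95% interval −1.34 to −0.22, edgeR adjusted p 0.136) and did not pass. DESeq2 called it (−0.75, adjusted p 0.0153).

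UQCRFS1, the Rieske iron-sulphur protein, varied more between libraries. It stood at 2.77 and 5.50 RPKM in the controls and 8.66 and 19.6 in the HOTSCRAMBL libraries of the KO arm, and at 6.66 and 5.28 and then 11.0 and 12.7 in those of the CBE arm. The groups did not overlap, although the library labelled OCI-AML4 held more than the other in both KO groups. UQCRFS1 rose 3.45-fold with KO (edgeR adjusted p 0.00102) and 1.96-fold with CBE (edgeR adjusted p 0.0419). The KO call was lost without AAVS1 KO replicate 1 or HOTSCRAMBL KO replicate 2, and the CBE call held in 5 of 16 alternative analyses. UQCRB, a small structural subunit, stood at 4.42 and 3.56 RPKM, 6.34 and 7.62, 3.40 and 4.26, and 9.33 and 7.54 in the 4 groups, and rose 1.75-fold and 2.23-fold (edgeR adjusted p 0.0108 and 9.96e-05), with the calls held in 12 and 14 of 16.

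Complex IV, cytochrome c oxidase, had 5 of its 15 tested genes higher with KO and 6 with CBE. Of all tested genes 4.51% and 4.56% were higher. The medians of the complex were 0.83 and 0.68. COX6B1 lies on the intermembrane side of the enzyme near the cytochrome c site. It stood at 16.9 and 18.3 RPKM in the controls and 74.4 and 73.5 in the HOTSCRAMBL libraries of the KO arm, and at 15.5 and 22.2 and then 42.3 and 43.1 in those of the CBE arm. The HOTSCRAMBL libraries were far above their controls and lay close together within a group. COX6B1 rose 4.20-fold with KO (2.07 on the log2 scale with SE 0.224, edgeR adjusted p 2.00e-07), the largest rise among the 83 genes in that comparison, and this held in all 16 alternative analyses. With CBE it rose 2.30-fold (1.20, SE 0.22, edgeR adjusted p 4.86e-04), which held in 13 of 16. The difference between the edits, 0.87 (95% interval 0.20 to 1.54), did not pass (edgeR adjusted p 0.18), while DESeq2 called it (0.92, adjusted p 0.00885).

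COX5B, which binds the matrix face of the enzyme, stood at 24.3 and 25.9 RPKM in the controls and 68.4 and 51.9 in the HOTSCRAMBL libraries of the KO arm, and at 18 and 22.1 and then 46.9 and 45.6 in those of the CBE arm. No HOTSCRAMBL library overlapped its controls. The rise was 2.38-fold with KO (SE 0.218 on the log2 scale, edgeR adjusted p 2.50e-04) and 2.32-fold with CBE (SE 0.216, edgeR adjusted p 3.43e-04), with the calls held in 16 and 15 of 16 alternative analyses. The difference between the edits was 0.04 (95% interval −0.61 to 0.68).

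COX4I1, the common isoform of the subunit through which ATP is known to regulate the enzyme, stood at 11.9 and 14.2 RPKM in the controls and 28.5 and 28.8 in the HOTSCRAMBL libraries of the KO arm, and at 14.1 and 14 and then 23.2 and 21.6 in those of the CBE arm. It rose 2.19-fold with KO (edgeR adjusted p 2.56e-05) and 1.60-fold with CBE (edgeR adjusted p 0.00513), with the calls held in 16 and 12 of 16. COX7C, a small membrane subunit, stood at 7.13 and 11.0 RPKM, 22 and 25.1, 8.30 and 9.62, and 26 and 25.8 in the 4 groups. COX7C rose 2.61-fold with KO (edgeR adjusted p 0.00151) and 2.92-fold with CBE (edgeR adjusted p 1.04e-04), held in 14 and 16 of 16. For these genes all HOTSCRAMBL libraries were above all control libraries of their editor.

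Of the rest of complex IV, COX7A2L, a factor that joins complexes III and IV, rose with KO (1.70, edgeR adjusted p 0.0102). Its 2 HOTSCRAMBL KO libraries stood at 2.73 and 7.57 RPKM against 1.75 and 1.46 in the controls, and the call was lost without either AAVS1 KO library or without HOTSCRAMBL KO replicate 2. COX8A (1.54, edgeR adjusted p 0.00319) and COX6C (0.97, edgeR adjusted p 0.0128), small membrane subunits, rose with CBE, with their calls held in 12 and 11 of 16. COX8A shares 35.4% of its exon bases with another annotated gene, and COX6C has 17 pseudogene symbols, to which its reads can also map. COX7A2L, COX8A and COX6C were named after their values were seen.

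**Figure D2:**
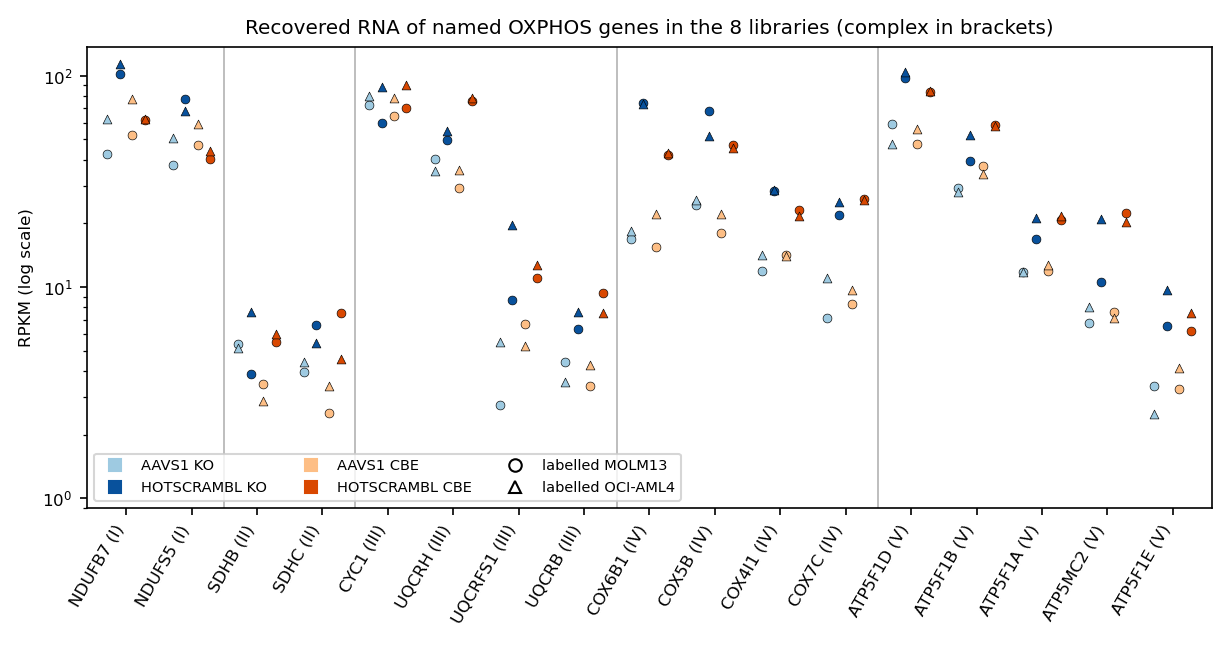
Recovered RNA (RPKM, log scale) of 17 genes named by rule in each of the 8 libraries, ordered by complex, with colour for the group, circles for libraries labelled MOLM13 and triangles for OCI-AML4. For COX6B1, COX5B, COX4I1, COX7C and the ATP5 genes shown the dark HOTSCRAMBL points lie above the pale AAVS1 points of the same editor, while those of CYC1 overlap.

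Complex V, the ATP synthase, had 5 of 18 genes higher with KO and 6 with CBE. Of all tested genes 4.51% and 4.56% were higher. The medians of the complex were 0.68 and 0.70. Its highest gene by RPKM was ATP5F1D, the delta subunit of the central stalk (163 CPM, against 176 CPM for ATP5F1A). ATP5F1D stood at 59.2 and 47.6 RPKM in the controls and 97.8 and 104 in the HOTSCRAMBL libraries of the KO arm, and at 47.7 and 56.2 and then 84.0 and 84.7 in those of the CBE arm. It rose 1.89-fold with KO (0.92 on the log2 scale with SE 0.142, edgeR adjusted p 5.22e-05) and 1.63-fold with CBE (0.70, SE 0.138, edgeR adjusted p 9.88e-04), held in 16 and 14 of 16 alternative analyses.

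The alpha and beta subunits form the catalytic head. ATP5F1A, the alpha subunit, stood at 11.8 RPKM in both controls and 16.9 and 21.3 in the HOTSCRAMBL libraries of the KO arm, and at 11.9 and 12.7 and then 20.8 and 21.6 in those of the CBE arm. It rose 1.61-fold and 1.73-fold (edgeR adjusted p 9.76e-04 and 9.20e-05), held in 13 and 16 of 16. ATP5F1B, the beta subunit, stood at 29.5 and 28.2 RPKM, 39.3 and 52.4, 37.5 and 34.1, and 58.5 and 57.6 in the 4 groups, and rose 1.59-fold and 1.62-fold (edgeR adjusted p 0.0164 and 0.00414), with each call held in 11 of 16. The groups did not overlap for either gene, and each rise was under 2-fold.

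ATP5MC2, which encodes the subunit of the rotating c-ring, stood at 6.76 and 8.00 RPKM in the controls and 10.5 and 20.9 in the HOTSCRAMBL libraries of the KO arm, and at 7.61 and 7.11 and then 22.5 and 20.3 in those of the CBE arm. The HOTSCRAMBL KO library labelled MOLM13 was the lower of its pair, and the CBE libraries lay close together. It rose 2.14-fold with KO (edgeR adjusted p 0.00811) and 2.92-fold with CBE (edgeR adjusted p 4.21e-05), held in 12 and 15 of 16. ATP5F1E, the epsilon subunit, stood at 3.38 and 2.50 RPKM, 6.51 and 9.69, 3.29 and 4.12, and 6.17 and 7.52 in the 4 groups. Its rises of 2.75-fold (edgeR adjusted p 0.00236) and 1.85-fold (edgeR adjusted p 0.0425) held in 13 and 5 of 16, and 23.2% of its exon bases are shared with TUBB1. ATP5PB, of the peripheral stalk, passed with CBE (1.00, edgeR adjusted p 0.0119) and not with KO (0.89, edgeR adjusted p 0.0623), and was named after its values were seen.

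**Figure D3:**
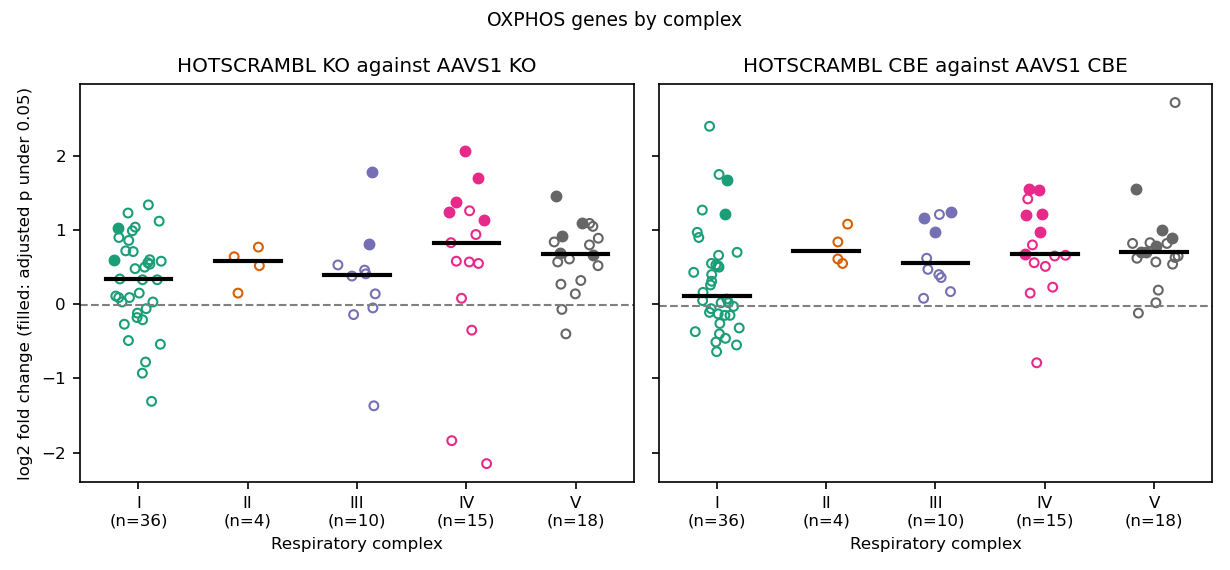
Log2 fold changes of the tested genes of complexes I to V with KO (left) and CBE (right), with filled points for genes that passed the test, black bars for the median of the complex and a dashed line for the median of all tested genes. The medians of complex I, 0.34 and 0.11, lie nearest to the dashed line, and those of complex IV and V lie between 0.68 and 0.83.

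Complexes I to V differed in how many genes passed, but differences between complexes were not tested. Genes that passed were mostly abundant ones. When all tested genes were split by CPM into 4 classes of equal size, the highest class held 25 OXPHOS genes, of which 11 passed with KO and 12 with CBE, where 11.3% and 14.3% of all genes of that class were higher. Within that class the complex I genes numbered 9, of which 2 passed with KO and 0 with CBE, the complex III genes 5, of which 1 and 2 passed, the complex IV genes 5, of which 4 and 5 passed, and the complex V genes 6, of which 4 and 5 passed. The median log2 pair ratios of complex I were 0.19 and 0.25 for KO in MOLM13 and OCI-AML4 and 0.09 and 0.12 for CBE. Those of complex III were 0.29 and 0.20 for KO and 0.47 and 0.69 for CBE, and those of complex IV 0.59 and 0.87 for KO and 0.73 and 0.64 for CBE. The pair labelled OCI-AML4 thus had a lower KO median in complex III than in complex I.

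Summed over its genes, complex IV stood at 254.2 and 297.8 CPM in the controls and 540.5 and 573.5 in the HOTSCRAMBL libraries of the KO arm, and at 242.0 and 295.9 and then 486.4 and 487.4 CPM in those of the CBE arm. The ratios of group means were 2.02 and 1.81 for complex IV, 1.70 and 1.71 for complex V, 1.25 and 1.49 for complex III, 1.43 and 1.64 for complex II, and 1.18 and 1.06 for complex I. All 87 genes together had 2193 ± 114 CPM in the controls and 3121 ± 303 in the HOTSCRAMBL libraries of the KO arm, and 2167 ± 141 and then 3032 ± 126 CPM in those of the CBE arm (SD, n = 2). These sums weight each gene by its level, and no test was run on them.

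**Figure D4:**
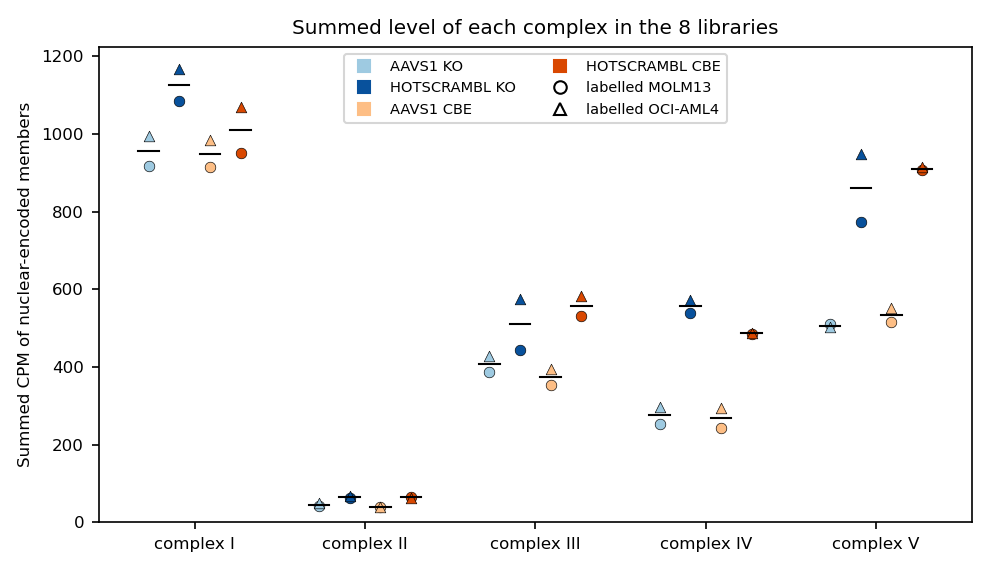
Summed CPM of the nuclear-encoded genes of each complex in the 8 libraries, with a black bar for the mean of 2 libraries, circles for the label MOLM13 and triangles for OCI-AML4. In complexes II to V all 4 HOTSCRAMBL libraries lie above all 4 AAVS1 libraries, and in complex I the HOTSCRAMBL CBE libraries, at 950.7 and 1070, overlap the controls at 914.3 and 984.9.

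A p-value that missed the threshold did not show that a gene stayed level. Of the 69 genes that did not pass with KO, 28 had a 95% interval wholly under a 2-fold rise and 41 had an interval that held it. With CBE these were 26 and 40 of 66. Genes that passed with either edit had a median SE of 0.259 for KO and a median level of 44.5 CPM, against 0.418 and 14.1 CPM for the others. Overlap with neighbours also touches the counts, since reads over several genes were not counted: 32 tested genes overlap no annotated gene, and 7 of them passed with KO and 7 with CBE. Pseudogene symbols exist for 49 of the 87, among them 7 each for COX6B1, COX5B and ATP5F1A, and reads that fit several places were not counted.

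Isoforms known from other tissues or states ranged from no counts to the level of common subunits. COX4I2, COX6A2 and COX8C had 0 counts in all 8 libraries, and COX7B2 had 29 counts in AAVS1 KO replicate 1 and 0 elsewhere. COX6B2, a testis form, stood at 0.864 and 1.06 RPKM in the controls and 0 and 0.409 in the HOTSCRAMBL libraries of the KO arm, and at 0.290 and 1.42 and then 1.62 and 0.572 in those of the CBE arm. COX7A1, the heart and muscle form, stood at 12 and 9.21, 4.00 and 2.06, 3.02 and 8.50, and 3.45 and 2.82 RPKM in the 4 groups. NDUFA4L2, known as hypoxia-induced, lay between 4.00 and 9.06 RPKM, UQCRHL, a retrocopy of UQCRH, between 0.655 and 4.23, and ATP5MGL between 0 and 2.64. With KO the log2 fold changes of COX6B2 and COX7A1 were −2.15 and −1.84, and neither passed (edgeR adjusted p 0.339 and 0.177).

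The third comparison tested whether the edits differed in their effect. By edgeR 0 of the 83 genes passed, where 3.19% of all tested genes did (in 1.74% the log2 effect of KO minus that of CBE was above 0, and in 1.45% below 0). An unadjusted p below 0.05 was found for 7 of the 83, and for 3399 of the 24057 tested genes. DESeq2 called 5 of the 83, where it called 9.17% of all tested genes in either direction. These were NDUFB7 (1.13, adjusted p 0.00384), NDUFS5 (1.10, adjusted p 0.0131) and COX6B1 above 0, and COX6C (−0.87, adjusted p 0.0312) and UQCRH below 0. The median of the differences was −0.10. For NDUFB7 the edgeR difference was 1.07 (95% interval 0.36 to 1.78, edgeR adjusted p 0.105).

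Between the controls, AAVS1 KO and AAVS1 CBE, edgeR called 0 of the 83 genes and 0.0% of all tested genes in either direction. An unadjusted p under 0.05 was found for 2 of the 83 and for 918 of the 24057 tested genes. DESeq2 called 0 of the 83 and 0.145% of all tested genes. The median log2 difference was 0.01. Between the labelled lines edgeR called 0 of the 83 (of all tested genes, 0.237% were higher in MOLM13 and 0.258% in OCI-AML4). An unadjusted p below 0.05 was found for 11 of the 83, and for 2210 of the 24057 tested genes. The median was −0.15, with 61 of 83 lower in MOLM13. DESeq2 called 3 of the 83, all lower in MOLM13, where it called 2.97% of all tested genes in either direction. They were COX7A2 (−0.59, adjusted p 0.0150), CYC1 (−0.33, adjusted p 0.00838) and NDUFB5 (−1.38, adjusted p 0.0457), named for these calls after their values were seen.

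The counts for other genes of the pathway are read against all tested genes, of which 4.51% were higher and 4.25% lower with KO, and 4.56% and 4.27% with CBE. Of 58 tested assembly factors, which build the complexes without being part of them, 4 rose and 1 fell with KO, and 4 rose and 3 fell with CBE, with medians of 0.06 and 0.14. The shares that passed are close to those of all tested genes. BCS1L, which inserts the Rieske protein into complex III, rose with both edits (0.90 and 0.81, edgeR adjusted p 1.15e-08 and 9.40e-08). Its mean level of 763 RPKM (2580 CPM) was far above that of the next assembly factor, SDHAF1, at 14.8 RPKM. Whether its counts come from BCS1L mRNA alone was not tested. COX16, a complex IV assembly factor, also rose with both edits (2.61 and 1.92, edgeR adjusted p 8.31e-05 and 0.00106). HIGD2A and NDUFAF3 rose with KO and COX18 and LYRM7 with CBE, while ACAD9 fell with KO and ATPAF2, COX19 and NDUFAF5 fell with CBE. Of CYCS, NDUFAB1, DMAC2L and ATP5IF1, 0 passed by edgeR, and an unadjusted p below 0.05 was found for 2 with KO and 1 with CBE. Such a p was found for 4834 of the 24057 tested genes with KO and 4845 with CBE. CYCS, which encodes cytochrome c, had log2 fold changes of 0.51 and 0.49 (edgeR adjusted p 0.113 and 0.0805).

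Of 16 genes of the tricarboxylic acid cycle, which supplies NADH and succinate, MDH2 rose with both edits (1.03 and 1.45, edgeR adjusted p 0.00186 and 1.51e-05). DLST and IDH3B fell with KO, and the medians of the 16 were −0.03 and −0.07. Of 10 tested regulators of mitochondrial genes 0 rose by edgeR. PPRC1 fell with KO (−0.48, edgeR adjusted p 0.0260), and POLRMT, the mitochondrial RNA polymerase (−0.51, edgeR adjusted p 0.00488), and PPARGC1B (−0.98, edgeR adjusted p 4.94e-05) fell with CBE. The log2 fold changes of NRF1, GABPA and YY1, whose sites were searched above, were −0.63, −0.06 and −0.08 with KO and 0.13, −0.20 and 0.13 with CBE, and none passed (lowest edgeR adjusted p 0.313).

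The partner subunits made from mitochondrial DNA were recovered at far higher levels. Of the 13, 12 rose with KO and 9 rose and 1 fell with CBE, and their summed level was 34320 ± 1380 CPM in the controls and 73070 ± 4660 in the HOTSCRAMBL libraries of the KO arm, and 34720 ± 2200 and then 44600 ± 1850 CPM in those of the CBE arm (SD, n = 2). The ratio of means was 2.13 with KO and 1.28 with CBE, where the nuclear genes had 1.42 and 1.40. These sums weight each gene by its level. MT-ND5 alone went from 8680 to 27800 CPM with KO and from 8670 to 6070 CPM with CBE. For 7 of the 13 the difference between the edits passed. Among families of other function, 70 of 84 cytosolic ribosomal protein genes rose with KO and 73 with CBE (medians 1.54 and 1.21), and 3 and 5 of 77 mitochondrial ribosomal protein genes rose (medians 0.33 and 0.34), near the 4.51% and 4.56% of all tested genes. Of 4 tested nuclear-retained RNAs, 1 rose and 1 fell with KO, and 1 rose and 2 fell with CBE.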

How the data were processed

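RNA counts of 8 ChIRP libraries were analysed. The deposited values are raw counts per gene, which the authors made with featureCounts 2.0.6 (per the file headers) from gene models of Ensembl 112 on GRCh38. Per the file headers, both reads of a pair were counted, strand was not used, and reads that fit several places or genes were not counted. The aligner's version is not given in the sources used here. Records of 2 genes broken over lines were rejoined, symbols were found for 62541 of 63140 identifiers, biotypes came from GENCODE 29, and 0 columns of other samples were present.

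All 24057 genes that passed filterByExpr (minimum count 10) were tested in edgeR 4.0.16 (R 4.3.3) by the quasi-likelihood F-test with robust estimation and without the older estimate. The model had TMM scaling, 4 groups and the labelled line, with 3 residual degrees of freedom, and Benjamini-Hochberg adjustment over all genes with a threshold of 0.05. The line gives the pairing. Deviations of same-labelled libraries correlated with r from 0.00851 to 0.0245 between groups. Among tested genes above the median level r ran from 0.0411 to 0.117. Libraries of a group differed by a chi-square per degree of freedom of 36.7 to 44.2, so none was taken as a repeat. On simulated data for the KO comparison (24057 genes), 66 of 87 genes changed by 2 on the log2 scale and 42 of 113 changed by 1 were recovered, with 1 false call. The changed genes were drawn only from well-counted genes. Simulated spread depended on level alone, with no line effect, so recovery for genes of low count or larger spread is not shown.

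CPM and RPKM used TMM-scaled library sizes and the deposited gene lengths, and pair ratios used log2 of CPM plus 1. Promoters are RefSeq's (GRCh38.p14). DESeq2 1.42.0 was an alternative. The others were DESeq2 size factors, no TMM, no count filter, no line term, halved counts, only the 4 libraries of a contrast, each library left out, and only genes without an overlapping gene. The levels of some marker genes of other cells are not reported here.

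The genes and lists were chosen with earlier results of these data known. Named genes were the 2 with the highest mean RPKM per complex, the 8 with the smallest p in each direction among those that passed with KO and with CBE, the 5 for the difference, and isoforms of other tissues for their level. Every other gene named was chosen after its values were seen, pathway genes included.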

Additional observations from a re-analysis of the deposited data

Results flagged for a closer look

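In genes of the pathway other than the nuclear subunits, the effect of KO and of CBE differed by the edgeR test of the difference. The values are the log2 effect of KO minus that of CBE, with edgeR adjusted p. MT-ND5 had the largest, 2.19 (4.74e-16), from 8680 to 27800 CPM with KO and from 8670 to 6070 CPM with CBE. MT-ND4L had 1.36 (edgeR adjusted p 5.99e-08), MT-ND6 1.06 (5.37e-06), MT-ND4 0.74 (2.81e-06) and MT-ND2 0.70 (2.70e-04), all complex I subunits made from mitochondrial DNA. MT-CO2 had −0.63 (edgeR adjusted p 6.71e-04) and MT-CO3 −0.40 (0.0352), both of complex IV. PPARGC1B, a coactivator of mitochondrial genes, had 1.21 (edgeR adjusted p 6.71e-04), from 148 to 175 CPM with KO and from 149 to 76.1 CPM with CBE. MT-ND4L and MT-ND4 overlap on the same strand, and reads over both were not counted.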

How the results depend on the processing

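Of the 1309 log2 fold changes of named genes under alternatives, 1234 kept their side of the threshold, 68 lost the call and 7 gained it. Of values with a call in either analysis, 0 changed sign, and sign changes of other values were not counted. The 1309 include the difference, the controls and the lines, where 0 of these genes had a call to lose. COX6B1, COX5B, COX4I1 and ATP5F1D with KO and UQCRH, COX7C and ATP5F1A with CBE kept their call in all 16 analyses. A fit of only the 4 libraries of a contrast gave 5 genes higher with KO and 7 with CBE, where 3.76% and 3.16% of all tested genes passed in either direction. The 32 genes without an overlapping gene held 7 and 7 calls. DESeq2 gave 25 with KO, 21 with CBE, 5 for the difference between the edits and 3 between the lines. Of all tested genes it called 17.3%, 13.9%, 9.17% and 2.97% in the same order. Without TMM the medians were 0.37 and 0.42, beside −0.17 and −0.15 for all tested genes. With the older quasi-likelihood estimate, chosen after seeing the data, the CBE median was 0.59, and over genes without an overlapping gene it was 0.63, with −0.01 for the difference. With a library left out, medians ran from 0.37 to 0.55 for KO, 0.51 to 0.58 for CBE and −0.22 to 0.00 for the difference. They ran from −0.02 to 0.07 for the controls and −0.22 to −0.12 for the lines. A fit without any 1 library called fewer genes with KO and with CBE, among the OXPHOS genes and among all tested genes. Such a fit assumes that the lone library varies like the other groups. The cause of these changes was not tested beyond the smaller numbers of libraries and genes. Without the block for the paired line labels 13 genes were higher with KO and 15 with CBE, where 7.22% and 6.82% of all tested genes passed in either direction. For the difference and the controls 0 passed. The fit of only 4 libraries gives no value for the difference or the lines. From the lowest to the highest of 4 classes by level the median SE for KO was 1.79, 0.868, 0.423 and 0.206. With counts halved the calls stayed at 14 and 17 in number.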
